A study of Mus musculus with 6 samples.

Results

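The purinergic sensing genes of microglia are a set of receptors, channels and an enzyme through which these cells read extracellular nucleotides, nucleosides and related lipids. The set was chosen by gene symbol and holds 9 genes, namely P2ry12, P2ry13, P2ry6, P2ry14, P2rx4, P2rx7, Entpd1, Gpr34 and Adora3. Of these, 8 were found among the 42303 rows of the RNA-seq count table. Gpr34, a receptor for lysophosphatidylserine that lies on chromosome X, was not analysed here.

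Microglia taken at the height of experimental autoimmune encephalomyelitis (EAE), which models multiple sclerosis in the mouse, were set against microglia from naive mice, taken before induction. Both groups were C57Bl/6 mice of the genotype Ccr2rfp/+::Cx3cr1gfp/+, so that 1 copy of Ccr2 and 1 copy of Cx3cr1 carried a fluorescent reporter in every animal, and EAE was induced at 24 to 28 weeks of age with peptide 35 to 55 of myelin oligodendrocyte glycoprotein. Peak was the second day without a further increase in score after sustained worsening. Cells of 30 mice were pooled per condition and sorted on F4/80 and CD45 after a Percoll gradient; the labels name brains and spinal cords in the protocol and brains alone in the design, and the age of the naive animals is not given separately. Each condition gave 1 RNA-seq library, of 36561934 counts at peak and 31282093 counts in naive microglia. Methylated DNA was captured with a methyl-CpG binding domain and sequenced (MiGS, MBD-isolated genome sequencing) in 2 libraries per condition, which the submitters describe as biological replicates; no label says how far they share animals, and the p-values below cover only the scatter between them, which may be partly technical. RNA differences describe a pair of libraries without a replicate check and so carry no p-value.

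Cells that are stressed, active or damaged release ATP and UTP, and surface enzymes break ATP down in steps to ADP, AMP and adenosine. Metabotropic P2Y receptors are coupled to G proteins, and those of the set respond to ADP, UDP or sugar nucleotides. Ionotropic P2X receptors are cation channels opened by ATP, and adenosine has receptors of its own. In surveying microglia the ADP receptor encoded by P2ry12 guides the extension of processes towards a site of damage, and its loss from the surface is a widely used sign that microglia have left the surveying state.

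The promoters of 4 members are printed below. They include the member with the highest RNA level (P2ry12) and the member with the largest ratio (P2ry14, first of 4 annotated starts). The others are a member rich in CpG sites with no captured fragment at its start (P2rx4), and the member with the most captured reads at its start (P2rx7, first start). Each is printed from 250 bases before to 50 bases after the annotated start, 5′ to 3′ on the gene's own strand, from RefSeq on build mm10, with each CG in capitals because CpG sites are what the capture can bind when methylated. P2ry12 lies at chr3:59262936-59263235 on the minus strand, P2ry14 at chr3:59153443-59153742 on the minus strand, P2rx4 at chr5:122707294-122707593 on the plus strand and P2rx7 at chr5:122643677-122643976 on the plus strand.
P2ry12: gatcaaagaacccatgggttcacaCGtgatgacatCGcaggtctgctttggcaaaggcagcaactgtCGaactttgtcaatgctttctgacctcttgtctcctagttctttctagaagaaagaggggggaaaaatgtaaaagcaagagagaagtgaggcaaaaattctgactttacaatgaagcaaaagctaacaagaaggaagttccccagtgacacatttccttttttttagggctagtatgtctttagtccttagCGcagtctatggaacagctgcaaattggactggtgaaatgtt
P2ry14: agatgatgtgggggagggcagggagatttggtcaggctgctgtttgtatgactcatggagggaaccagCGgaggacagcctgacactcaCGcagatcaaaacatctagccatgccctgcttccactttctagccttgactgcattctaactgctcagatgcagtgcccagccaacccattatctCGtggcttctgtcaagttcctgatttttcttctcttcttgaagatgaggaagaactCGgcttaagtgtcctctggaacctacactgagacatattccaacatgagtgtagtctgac
P2rx4: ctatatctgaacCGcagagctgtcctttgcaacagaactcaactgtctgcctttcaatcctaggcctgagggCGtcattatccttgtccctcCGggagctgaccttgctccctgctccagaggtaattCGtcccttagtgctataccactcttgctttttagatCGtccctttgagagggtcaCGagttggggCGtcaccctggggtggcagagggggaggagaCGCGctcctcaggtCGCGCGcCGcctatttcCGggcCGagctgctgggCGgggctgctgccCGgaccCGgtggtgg
P2rx7: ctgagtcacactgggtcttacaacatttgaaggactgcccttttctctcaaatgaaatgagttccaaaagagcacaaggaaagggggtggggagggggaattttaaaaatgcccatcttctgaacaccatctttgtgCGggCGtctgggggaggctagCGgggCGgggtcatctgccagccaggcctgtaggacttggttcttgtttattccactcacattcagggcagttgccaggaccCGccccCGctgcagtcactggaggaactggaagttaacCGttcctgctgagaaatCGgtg

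These 4 windows differ in CpG content. P2rx4 held 18 CG, P2rx7 held 8, and P2ry12 and P2ry14 held 4 each, against a median of 7 over 32851 RefSeq promoters of the same length. Among the other members with a promoter in the reference, the first start of Entpd1 held 23, P2ry13 held 6 and Adora3 held 1; in all, 7 members matched with 12 promoters. A search on both strands for GAGGAA, the core of motifs bound by the myeloid factor PU.1, found it in 9 of the 12 member promoters, among them the printed windows of P2ry14 and P2rx7 and not those of P2ry12 and P2rx4, and in 28.3% of all promoters. Promoters of the same gene are not independent, and the second and the third of P2ry14 overlap. TGANTCA, the AP-1 motif, was present in 4 of the 12, once each in the printed windows of P2ry14 and P2rx7, and in 7.81% of all promoters. TTCNNNGAA, the motif of STAT factors, occurred in none of the 12 promoters, and in 8.30% of all promoters. The interferon-stimulated response element (ISRE) likewise occurred in none of the 12 and in 3.44% of all promoters.

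The first comparison asked how the RNA of these genes differed between microglia at the peak of EAE and naive microglia. The set did not move as a block. P2ry14, the receptor for UDP-glucose and other UDP sugars, was 10.8-fold higher at peak, P2ry12 was 2.09-fold lower, and the other 6 measured members stayed within 2-fold. A ratio of 2-fold or more was the criterion for calling a gene higher or lower, and 11.6% of the 14367 genes with at least 50 counts were higher by this criterion and 9.35% were lower. Of the 8 members, 1 was higher and 1 was lower, which is near those shares. When the whole counting interval had to lie beyond 2-fold, the members gave the same calls, beside 8.83% of all genes higher and 4.29% lower. Across the members the median log2 ratio was -0.34, against -0.0027 over all genes, and 6 of 8 had a ratio below 1.

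P2ry12 encodes a receptor for ADP coupled to inhibitory G proteins. It had 60990 counts and 655 FPKM (fragments scaled to transcript length and library size, as computed by the authors) at peak, against 115890 counts and 1455 FPKM in naive microglia. Its rank by FPKM among all rows was 52 at peak and 19 in naive microglia. The scaled ratio was 2.09-fold lower at peak, with a 95% counting interval of 2.07-fold to 2.11-fold lower. With scalings other than TMM the fold stayed between 2.08-fold and 2.30-fold lower.

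P2ry13 encodes a second ADP receptor of the same type, and lies 5389 bp from P2ry12 on the same strand of chromosome 3. It had 28184 counts and 305 FPKM at peak, against 44147 counts and 558 FPKM in naive microglia. The ratio was 1.72-fold lower (interval 1.70-fold to 1.75-fold lower), so both ADP receptors were below their naive level and P2ry13 did not reach 2-fold under any of the scalings used. P2ry6, the receptor for UDP that is known to trigger phagocytosis in microglia, had 5731 counts and 80.9 FPKM at peak, against 5930 counts and 97.8 FPKM in naive microglia. Its ratio of 0.88 (0.85 to 0.91) was the nearest to 1 in the set.

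P2ry14 was the least abundant member in both libraries and had the largest ratio. It had 1145 counts and 2.83 FPKM at peak, against 96 counts and 0.277 FPKM in naive microglia. The ratio of 10.8 had a counting interval of 8.81 to 13.5, and other scalings gave between 9.83 and 10.8. The ratio of FPKM values was 7.77 with 0.1 added to each FPKM, an addition that is large beside the naive value of 0.277. In level it remained far below P2ry12, whose FPKM was 231 times that of P2ry14 at peak and 5244 times in naive microglia. These multiples depend on the lengths used for FPKM, which counts and FPKM imply to be 11.1 kb for P2ry14 and 2.55 kb for P2ry12. Whether these lengths match the transcripts present was not tested. In counts the gap was smaller, with 60990 for P2ry12 at peak and 115890 in naive microglia.

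The ATP-gated channels differed in direction. P2rx4, a channel known from spinal microglia after nerve injury, had 5613 counts and 21.9 FPKM at peak, against 2674 counts and 12.2 FPKM in naive microglia. Its ratio of 1.91 (1.82 to 2.001) fell just short of 2-fold, and was 1.74 at its lowest under another scaling. P2rx7, which opens at high ATP and is known for activating the NLRP3 inflammasome, had 9928 counts and 45.5 FPKM at peak, against 11028 counts and 59.1 FPKM in naive microglia. Its ratio was 0.82 (0.80 to 0.84), and the FPKM of P2rx7 was 2.08 times that of P2rx4 at peak and 4.85 times in naive microglia.

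The enzyme and the adenosine receptor were both below their naive level. Entpd1 encodes CD39, the surface enzyme that converts ATP and ADP to AMP. It had 29327 counts and 144 FPKM at peak, against 42471 counts and 243 FPKM in naive microglia, a ratio of 0.63 (0.62 to 0.64). Adora3, the A3 adenosine receptor, had 2996 counts and 21.97 FPKM at peak, against 3581 counts and 30.7 FPKM in naive microglia, a ratio of 0.76 (0.73 to 0.80).

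By FPKM the order of the members was P2ry12, P2ry13, Entpd1, P2ry6, P2rx7, Adora3, P2rx4 and last P2ry14, in both libraries. The closest neighbours in this order at peak were Adora3, at 21.97 FPKM at peak and 30.7 FPKM in naive microglia, and P2rx4, at 21.9 FPKM at peak and 12.2 FPKM in naive microglia. The summed FPKM of the 8 members was 1277 at peak and 2457 in naive microglia. P2ry12 made up 51.3% of that sum at peak and 59.2% in naive microglia, P2ry13 made up 23.9% at peak and 22.7% in naive microglia, and Entpd1 made up 11.3% at peak and 9.90% in naive microglia.

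**Figure D1:**
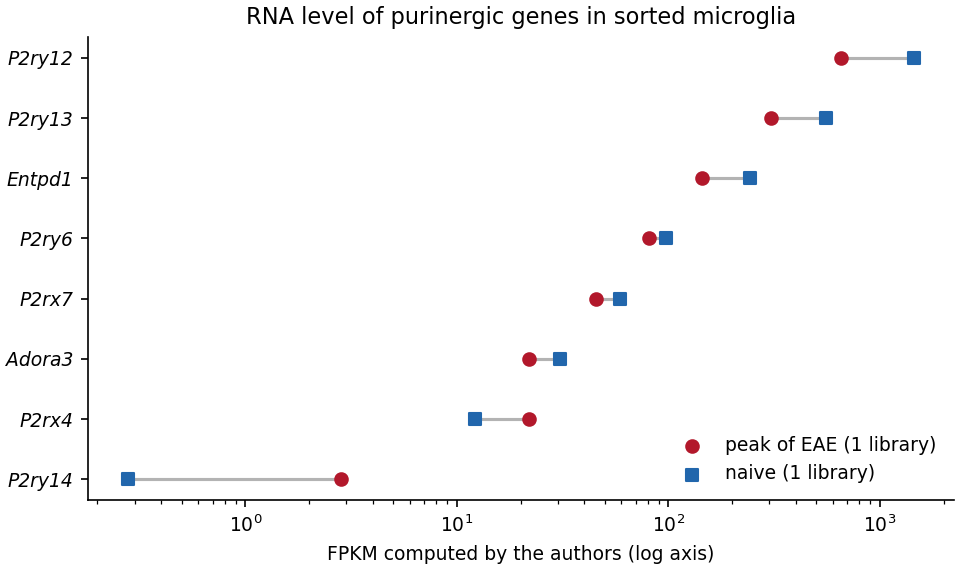
RNA level of the 8 measured purinergic sensing genes in FPKM as computed by the authors, on a log axis, with circles for the peak library, squares for the naive library and a line joining the pair. P2ry12 has the highest level, at 655 FPKM at peak and 1455 FPKM in naive microglia; only P2ry14 and P2rx4 have their peak value to the right of the naive value.

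Genes whose levels over the same 2 libraries lay nearest to a member, by distance in log2(FPKM + 1) among 19914 candidates, give a scale for each pattern. For P2ry12 they were Serinc3 (708 FPKM at peak and 1215 FPKM in naive microglia), Fcrls (513 FPKM at peak and 1277 FPKM in naive microglia) and Tmem119 (886 FPKM at peak and 1768 FPKM in naive microglia), of which Fcrls and Tmem119 are microglia markers. For P2ry13 they were Slco2b1, Tgfbr1 and Rnase4, and for Entpd1 they were Saraf, Adap2 and Jun. For P2ry14 they were Trim59, Il18rap and Gpr31b. The nearest to P2rx4 were Nfkb2, Egr1 and Fnbp4, to P2rx7 Selenos, Tubgcp5 and Prcp, to P2ry6 Ldhb, Zfp36l2 and Pdgfb, and to Adora3 Rxra, Kdm3a and Lrch1. A likeness over 2 libraries rests on a pair of points per gene.

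The sorted cells carried high levels of microglia markers in both libraries, and 20 of 20 such markers outside the set were measured. Csf1r, for example, had 284975 at peak and 376787 in naive microglia. Of the 20 markers, 1 was at least 2-fold higher at peak (Gpr84, ratio 3.11) and 3 were lower (Fcrls, Slc2a5 and Cst3), with a median log2 ratio of -0.69. The ratios of Cx3cr1 (0.53) and Tmem119 (0.53) were close to that of P2ry12 (0.48), and those of the complement genes C1qa, C1qb and C1qc lay between 1.43 and 1.62. In bulk RNA, fewer microglia among the sorted cells and less RNA per microglia cannot be told apart.

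Markers of other cells were also present. Of 17 monocyte markers 16 were measured and 10 were at least 2-fold higher at peak, none was lower, and none was at 0 in both libraries. The median log2 ratio of the 16 was 2.97. Their summed level was 1293 CPM (counts scaled to a common library size after TMM) at peak and 145 CPM in naive microglia. Most of the peak sum came from Fn1, which had 35840 counts at peak and 816 in naive microglia. Platelets use the P2ry12 receptor, and the 10 platelet and megakaryocyte markers summed to 13.99 CPM at peak and 32.4 CPM in naive microglia. Only 3 of the 10 were measured, of which 1 was at least 2-fold higher at peak and 1 was lower. Most of the sum came from the lower gene, with 287 counts at peak and 956 in naive microglia. Gp6 was among 2 markers at 0 in both libraries. Rodent mast cells express Adora3, and the 10 mast cell markers summed to 3.86 CPM at peak and 4.15 CPM in naive microglia. T cell markers summed to 13.003 CPM at peak and 4.46 CPM in naive microglia, astrocyte markers to 474 CPM at peak and 951 CPM in naive microglia, endothelial markers to 223 CPM at peak and 303 CPM in naive microglia, and border macrophage markers to 329 CPM at peak and 367 CPM in naive microglia. Dendritic cell markers summed to 151 CPM at peak and 400 CPM in naive microglia, most of it from Fscn1. Neutrophil markers summed to 452 CPM at peak and 442 CPM in naive microglia, most of it from Csf3r, with Elane and Mpo at 0 in both. Of 7 neutrophil markers measured, 2 were at least 2-fold higher at peak and 2 were lower. B cell markers summed to 15.9 CPM at peak and 24.1 CPM in naive microglia. The part of these cells in the ratios of the purinergic genes was not tested.

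The rest of the purinergic pathway was read from lists of 72 genes, of which 67 had a row and 55 were measured. Of the 55, 9 were at least 2-fold higher at peak, 6 were lower and 40 were neither, with a median log2 ratio of -0.02, beside 11.6% higher and 9.35% lower over all genes. Of 13 other receptors, 10 had a row and 6 of these were measured, mostly at low counts. Adora1, the A1 adenosine receptor, had 2714 counts and 12.8 FPKM at peak, against 116 counts and 0.641 FPKM in naive microglia. Its ratio of 21.2 (17.7 to 25.9) was above that of every member. The FPKM of Adora1 was 0.584 times that of Adora3 at peak and 0.0209 times in naive microglia.

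P2ry2, a receptor for ATP and UTP and the nearest gene above P2ry6 on chromosome 7, had 215 counts and 1.96 FPKM at peak, against 23 counts and 0.245 FPKM in naive microglia, a ratio of 8.34 (5.52 to 13.7). P2rx1, an ATP-gated channel, had 520 counts at peak and 404 in naive microglia, a ratio of 1.17. P2ry1, another ADP receptor, had 22 counts at peak and 36 in naive microglia (0.56). Adora2b had 43 counts at peak and 44 in naive microglia (0.89), and P2rx6 had 18 counts at peak and 36 in naive microglia, a ratio of 0.46 with a counting interval of 0.24 to 0.82.

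Among the enzymes that handle nucleotides and adenosine, 2 of 11 measured genes were higher and 3 were lower. Enpp2, which encodes autotaxin and makes lysophosphatidic acid, had 7739 counts at peak and 26905 in naive microglia, 3.82-fold lower. Enpp1, which cleaves ATP to AMP and pyrophosphate, had 1383 counts at peak and 472 in naive microglia, a ratio of 2.66. Nt5e encodes CD73, the enzyme that turns the AMP made by CD39 into adenosine, and had 65 counts at peak and 19 in naive microglia, a ratio of 3.06 with an interval of 1.84 to 5.50. In level it stayed at 0.211 FPKM at peak and 0.0722 FPKM in naive microglia, against 144 FPKM at peak and 243 FPKM in naive microglia for Entpd1.

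The lower enzymes apart from Enpp2 were Entpd2 (28 counts at peak and 83 in naive microglia) and the alkaline phosphatase Alpl (45 counts at peak and 138 in naive microglia). The intracellular relatives of Entpd1, Entpd4, Entpd5, Entpd6 and Entpd7, had ratios between 0.95 and 1.28. Ada, which breaks adenosine down, had 145 counts at peak and 71 in naive microglia, a ratio of 1.85, and Adk, which phosphorylates it, had a ratio of 0.93.

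Of the nucleoside transporters, 1 of 5 measured was higher and 1 was lower. Slc28a2 had 81 counts at peak and 32 in naive microglia (2.28), and Slc29a4 had 20 counts at peak and 81 in naive microglia (4.37-fold lower). The more abundant equilibrative transporters Slc29a3 (46.7 FPKM at peak and 56.6 FPKM in naive microglia) and Slc29a1 (21.99 FPKM at peak and 34.8 FPKM in naive microglia) stayed within 2-fold. Among genes of ATP release, Calhm6 had 752 counts at peak and 199 in naive microglia, a ratio of 3.43, and its relative Calhm2 had 2194 counts at peak and 3418 in naive microglia, a ratio of 0.58. The hemichannel gene Panx1 had a ratio of 1.26. Gja1, a connexin abundant in astrocytes and also in the astrocyte list, had 683 counts at peak and 1636 in naive microglia, 2.63-fold lower, beside 7 of 10 astrocyte markers that were lower.

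Of partners that signal with the members, 3 of 24 measured genes were higher and none was lower, beside 11.6% higher and 9.35% lower over all genes. Kcnk13 encodes the potassium channel THIK-1 that works with P2ry12 in surveying microglia, and had 2315 counts at peak and 2815 in naive microglia (0.75). Kcnn4, a calcium-activated potassium channel, had 267 counts at peak and 84 in naive microglia (2.88). On the route from P2rx7 to interleukin-1 beta, Il1b had 4639 counts and 66.5 FPKM at peak, against 437 counts and 7.33 FPKM in naive microglia, a ratio of 9.65 (8.76 to 10.7). The adaptor gene Pycard had a ratio of 2.14, which upper quartile scaling took to a log2 ratio of 0.96, under 2-fold. Casp1 had a ratio of 1.67, Nek7 of 1.08 and Nlrp3 itself of 0.80. Abhd12, which breaks down the Gpr34 ligand lysophosphatidylserine, had 33273 counts at peak and 31635 in naive microglia (0.96).

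**Figure D2:**
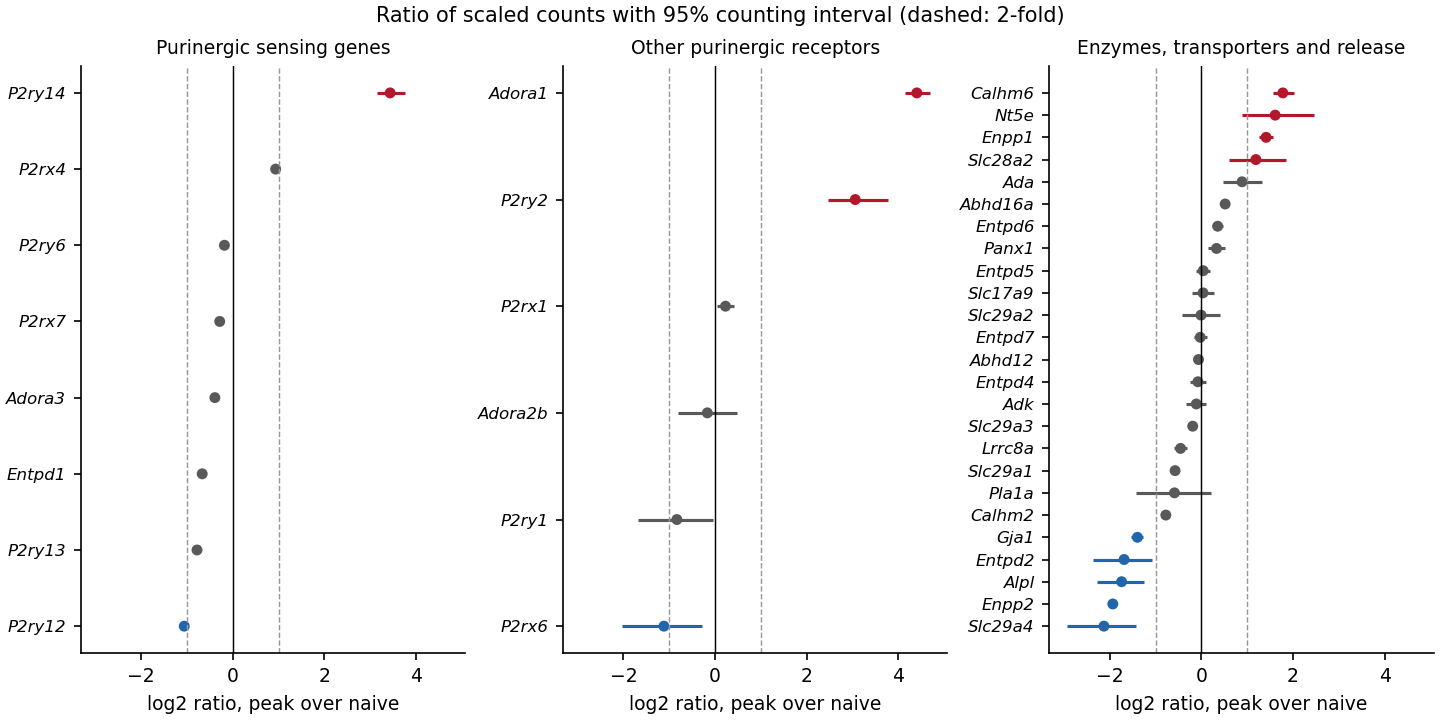
Log2 ratio of scaled counts, peak over naive, with its 95% counting interval, for the members, the other purinergic receptors, and the enzymes, transporters, release and lysophosphatidylserine genes with at least 50 counts; dashed lines mark 2-fold, and red and blue mark genes at least 2-fold higher and lower. Adora1 (21.2-fold), P2ry14 (10.8-fold) and P2ry2 (8.34-fold) stand far to the right, and most members lie between the dashed lines.

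The surroundings of the members bear on how their counts can be read. P2ry12, P2ry13 and P2ry14 lie on the minus strand of chromosome 3 (mm10 59216271 to 59262985, 59207892 to 59210882 and 59114623 to 59153492) within Med12l, a gene on the plus strand. Med12l had 1896 counts at peak and 2050 in naive microglia, a ratio of 0.84. The library kit keeps the strand, but since the counting setting is not given, reads of overlapping genes on opposite strands may not be told apart. The part of Med12l reads in the ratio of P2ry14 was not tested.

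Gpr171, the nearest gene below P2ry14 at a distance of 12802 bp, had 142 counts at peak and 9 in naive microglia, a ratio of 13.6 (7.35 to 32.0). P2rx4 overlaps Camkk2, which lies on the opposite strand and had a ratio of 0.99, and P2rx7 ends 4460 bp before the pseudogene Gm10064, which had 0 counts in both. Adora3 lies within Tmigd3 on the same strand, and Tmigd3 had 27 counts at peak and 12 in naive microglia, so that reads of shared exons are uncertain. Entpd1 starts 42 bp from Tctn3, which lies on the opposite strand and had 730 counts at peak and 411 in naive microglia, a ratio of 1.62.

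The second comparison asked whether captured methylated DNA at these genes differed between the conditions. No difference passed the adjusted threshold of 0.05 (limma, Benjamini-Hochberg) at a member or at any other gene tested: 0 of 6063 starts, 0 of 16584 bodies and 0 of 936715 windows passed (0% in each case). An unadjusted p under 0.05 was reached by 280 starts, 499 bodies and 42797 windows. Run on the recovered reads, both DESeq2 and edgeR's quasi-likelihood test (TMM) also passed 0 starts, 0 bodies and 0 windows.

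At gene starts, from 1000 bp before to 500 bp after, capture was absent or slight for most members. Reads of a start or body are sums over its 50 bp windows, so a fragment that falls in several windows is counted in each. P2ry12, P2ry13 and P2rx4 had 0 reads in all 4 libraries, as did 57.9% of the 20661 starts. For P2rx4 this was so at a promoter with 18 CG, and for P2ry12 at a promoter with 4 CG, both printed above. P2ry14 had 14 reads in total at its first start (10 and 2 at peak, 0 and 2 in naive microglia) and P2ry6, read at both gene ends, had 9. Absence of reads means that no captured fragment was seen at this depth.

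At 3 members the starts had enough reads to be tested. The P2rx7 start had 33 and 31 reads summed over windows at peak, against 7 and 0 in naive microglia. The groups did not overlap, which was also so at 32.1% of all starts tested. The difference was 3.19 on the log2(signal + 1) scale (SE 1.51) with an unadjusted limma p of 0.0344 and an adjusted p of 0.913, and with a region from 2000 bp before to 1000 bp after the start it was 0.18. It was 1.61 without naive replicate 2 and 4.77 without naive replicate 1. Adora3 had 15 and 9 reads at peak and 15 and 4 in naive microglia (adjusted p = 0.997 with limma), and Entpd1 had 13 and 5 reads at peak and 6 and 4 in naive microglia (adjusted p = 0.988 with limma). The second start of P2rx7, the second start of Entpd1 and the other 3 starts of P2ry14 had 0 reads in all libraries.

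Gene bodies, which are longer than the starts, held more reads than the starts at every measured member but Adora3, which had 43 reads at its start. The density of capture in bodies differed among the members by over a factor of 10. In signal per kb of body, P2rx4 averaged 28.6 ± 3.85 at peak and 29.6 ± 6.29 in naive microglia (SD, n = 2 each), and was at the 82.3 percentile of all bodies by its mean over the libraries. P2ry12 averaged 3.60 ± 3.10 at peak and 1.89 ± 0.556 in naive microglia (SD, n = 2 each), at the 26.5 percentile. Among the members only Adora3 was lower, at the 25.6 percentile, and P2ry13, second by RNA level, was at the 57.5 percentile. Adora3 averaged 1.41 ± 1.34 at peak and 3.73 ± 3.87 in naive microglia (SD, n = 2 each), on 35 reads in all. The median over all bodies was 9.52 and 7.76 per kb in the peak libraries and 7.84 and 8.72 per kb in the naive libraries.

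The P2ry14 body had 10.6 and 20.6 signal per kb in the peak libraries, against 16.7 and 44.1 in the naive libraries. Naive replicate 1 lay between the peak libraries, so the groups overlapped. The difference was -0.88 on the log2 scale (SE 0.46, adjusted p = 0.957 with limma), with -0.18 without naive replicate 2 and -1.57 without naive replicate 1. The P2rx7 body had 17.9 and 20.03 signal per kb at peak, against 14.7 and 11.4 in naive microglia, with no overlap between the groups. Its difference was 0.55 (SE 0.37, adjusted p = 0.957 with limma). The P2ry13 body, of 1991 bp and 91 reads in all, had 12.5 and 2.46 per kb at peak, against 17.7 and 14.001 in naive microglia, again without overlap (-1.39, SE 1.07, adjusted p = 0.957 with limma); the difference was -0.32 without peak replicate 2 and -2.45 without peak replicate 1. The groups were apart in 2 of 8 member bodies and in 27.5% of all bodies, so this is near the background.

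The remaining bodies overlapped between the groups. P2ry6 averaged 18.98 ± 4.64 at peak and 23.5 ± 9.87 in naive microglia, and Entpd1 averaged 7.22 ± 1.05 at peak and 6.38 ± 1.07 in naive microglia (SD, n = 2 each). Of the 8 bodies 3 were higher and 5 lower at peak, with adjusted limma p-values between 0.957 and 0.992. P2rx4, with an RNA ratio of 1.91, had nearly equal mean body signal in both conditions, with a difference of -0.04 on the log2 scale (SE 0.38).

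**Figure D3:**
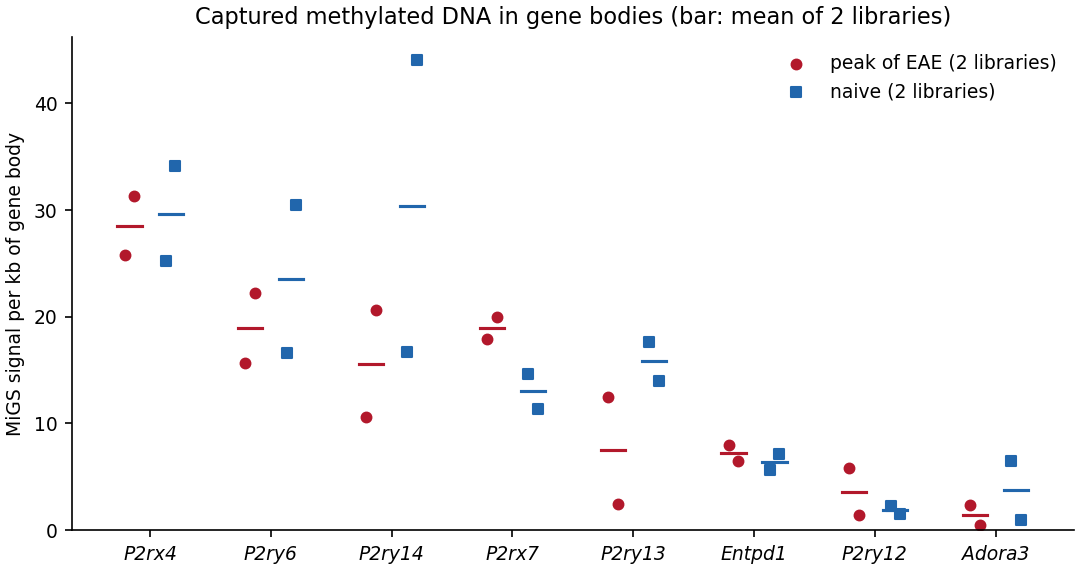
MiGS signal per kb of gene body for the 8 members, with circles for the 2 peak libraries, squares for the 2 naive libraries and a bar for each mean. By the mean of all 4 libraries P2rx4, P2ry14 and P2ry6 have the most captured bodies and P2ry12 and Adora3 the least; at peak P2rx7 (18.96) lies above P2ry14 (15.6), and the groups are apart only for P2rx7 and P2ry13.

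In windows of 50 bp within 5000 bp of a member, 236 had enough reads to be tested, of which 0 passed with limma and 7 had an unadjusted p under 0.05. The 7 are 2.97% of the windows at members, beside 4.57% of all windows tested. Without naive replicate 1, 11 of the 236 windows passed (4.66%), 10 higher and 1 lower at peak, beside 3.65% of all windows in the same fit, and the lone naive library was then assumed to vary like the peak libraries. The most captured stretch of any member was in P2ry14, 1986 bp after the last of its 4 annotated starts. In the window from 59128751 to 59128800 of chromosome 3 there were 11 and 77 reads at peak, against 46 and 202 reads in naive microglia. Peak replicate 2 was above naive replicate 1, and within each condition the second library had over 4 times the reads of the first. The difference was -2.14 on the log2 scale (SE 1.06, adjusted p = 0.818 with limma), and the 2 windows beside it gave -2.02 and -1.95.

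Windows with many reads lay in other members too. In P2ry6 the window from 100974501 to 100974550 of chromosome 7 had 13 and 68 reads at peak, against 20 and 129 in naive microglia (-1.21, SE 0.98). The window with the smallest p among those of P2ry6, from 100974701 to 100974750, had 16 and 24 reads at peak, against 13 and 0 in naive microglia (2.11, SE 0.78, adjusted p = 0.818 with limma). In Entpd1 the window from 40736301 to 40736350 of chromosome 19 had 31 and 52 reads at peak, against 39 and 62 in naive microglia. The most captured window near P2rx7, from 122641601 to 122641650 of chromosome 5, was at -2301 bp from its first start and had 37 and 47 reads at peak, against 43 and 38 in naive microglia.

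**Figure D4:**
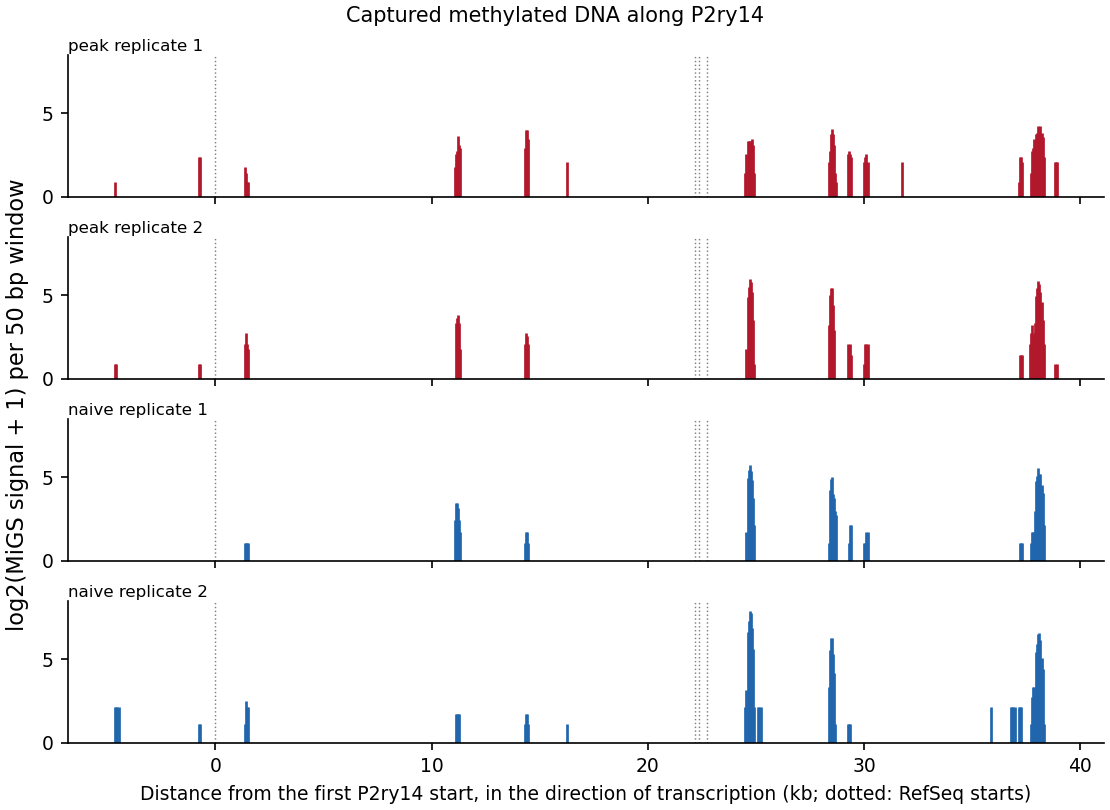
Captured methylated DNA along P2ry14 in each of the 4 libraries as log2(signal + 1) per 50 bp window, against the distance in kb from its first annotated start in the direction of transcription; dotted lines mark the 4 RefSeq starts. The main stretches are captured in all 4 libraries, and the stretch just after the last starts, which held up to 77 reads per window at peak and up to 202 in naive microglia, is higher in the second library of each condition.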

How the data were processed

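RNA was measured by total RNA-seq in 1 library per condition and DNA methylation by MiGS in 2 libraries per condition. The submitters' processing notes name Bowtie2, TopHat, featureCounts and edgeR and build mm10. The sources used here do not give the step each tool did, its version or whether counting used the strand. As RNA files the authors deposited raw read counts per gene, and beside them FPKM values that the authors computed, which set levels between genes. The deposited MiGS signal is a value per 50 bp window; dividing each library's values by their smallest step gave whole reads for 100% of values (tolerance 0.001), so the signal is reads over a library factor. Windows not listed in a library were taken as 0. Chromosomes 1 to 19 were analysed.

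From these, RNA counts were scaled by TMM (edgeR 4.0.16, factors from genes whose counts in the pair of libraries add up to 50 or more; peak 36561934 and naive 31282093 counts in total) and compared as a ratio of peak over naive, with 0.5 added on the log2 scale and an exact Clopper-Pearson 95% interval that covers counting error only. Rows without a symbol numbered 506 of 42303. A gene counts as higher or lower at 2-fold or more. MiGS was tested with limma 3.58.1 (variance trend) on log2(signal + 1), two-sided; p-values were adjusted by Benjamini-Hochberg (threshold 0.05) over all starts, bodies or windows with at least 20 recovered reads; the fold changes on this scale understate low regions. A start runs from 1000 bp before to 500 bp after the gene start, and from both gene ends where the reference gave no strand. A body leaves out 500 bp at each end. A fragment falls in several windows, so neighbouring windows are not independent. Reads of a start or body are summed over its windows, and a fragment counts once for each window it falls in. These sums, to which the minimum of 20 was applied, can therefore exceed the number of fragments. Counts of recovered reads, summed in the same way for starts and bodies, were also tested with edgeR's quasi-likelihood test and DESeq2 1.42.0. Alternatives covered scaling, count minimum, pseudocount, region, test, replicate number and each library left out. The steps were tested on simulated data, with R 4.3.3 and Python 3.11.15.

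The members and gene lists were chosen with earlier results of these data known. Named genes are the members, pathway genes with at least 50 counts, up to 4 of the most counted genes of each marker list and any at 0, genes overlapping or beside a member, and the 3 genes nearest to each member in log2(FPKM + 1). A few of these genes are not reported here.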

Additional observations from a re-analysis of the deposited data

How the results depend on the processing

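The RNA calls of the members (1 higher, 1 lower) were the same under every scaling, count minimum and call rule tried and with the FPKM of the authors. The median member log2 ratio of -0.34 became -0.43 with library totals, -0.48 with upper quartile scaling and -0.43 with FPKM; against TMM the median of all genes shifted by -0.09, -0.14 and, with DESeq2 size factors, 0.0028. For MiGS starts over all genes, log2(value + 0.5) passed 1. For windows over all genes, a minimum of 50 reads passed 18. Leaving out each library in turn passed between 0 and 34199 windows over all genes and between 0 and 11 at members, where the highest of both counts came without naive replicate 1; without naive replicate 2, 33 windows passed over all genes.

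Whether shared numbers pair the MiGS libraries is not given by the labels, and same-numbered libraries deviated together with r of 0.15 in starts, 0.13 in bodies and 0.40 in windows. With the replicate block, limma passed 272 starts, 152 bodies and 70120 windows over all genes, and edgeR passed 47, 644 and 49220. At members the block passed 0 starts with both tools, 1 body with edgeR (P2ry14, lower, adjusted p = 0.0404; 0.154 with limma), 10 windows with limma and 9 with edgeR. Of these windows 6 with limma and 5 with edgeR were in P2ry14, all lower at peak, and the most captured of them (11 against 46 and 77 against 202 reads in same-numbered peak and naive libraries) had adjusted p-values of 2.98e-07 with limma and 6.11e-06 with edgeR. A further 4 and 2 were in P2ry6 and, with edgeR, 2 in P2rx4.

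Directions of members that passed no test reversed in places. The P2rx4 body gave 0.10 with edgeR and TMM, 0.083 with DESeq2 size factors in edgeR, 0.085 with the edgeR replicate block and 0.083 with DESeq2. The Adora3 start gave -0.23 with edgeR and TMM, -0.22 with DESeq2 size factors in edgeR and -0.22 with DESeq2. Of other members, the body of P2ry13 ran from -2.45 to -0.32 and the start of P2rx7 from 1.61 to 4.77 with each library left out in turn. On the same footing, log2 changes ran from -2.26 to 0.14 for the Adora3 body, -0.26 to 0.17 for P2rx4, -0.39 to 1.64 for P2ry12 and -0.71 to 0.17 for P2ry6, and from -0.77 to 0.91 for the Adora3 start and -0.39 to 0.82 for the Entpd1 start. The cause was not tested. With all 4 libraries and no replicate block, no test passed a start, body or window of a member; with 2 libraries per condition, and few reads at starts, this does not show that differences are absent.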
